A study of Homo sapiens with 12 samples.

Results

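KRT5, KRT14 and KRT15, the keratins of the basal layer of stratified epithelium, were followed as 3 of the 33538 genes counted in cells of head and neck squamous carcinoma (HNSCC) with or without cetuximab. The members were chosen by name, and each was found on 1 row of the count tables. Cetuximab is a therapeutic antibody against EGFR, the receptor for epidermal growth factor. The cells came from the established tumour lines SCC1, SCC6 and SCC25. All 3 were given either cetuximab at 100 nM or phosphate-buffered saline (PBS, the untreated control) every day for 5 days, and all of them grew in medium with serum. Single-cell RNA-seq (scRNA-seq) with a 3′ droplet chemistry gave 2 libraries for each of the 6 groups, 12 in all. Each group is a cultured tumour line without stroma, and whether its 2 libraries came from separate cultures is not clear, so that every SD, SE and p covers the spread between libraries.

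Keratins are intermediate filament proteins that assemble as pairs of 1 type I and 1 type II chain. In the basal layer of skin and oral mucosa, KRT5 (type II) pairs with KRT14 (type I), and the filaments are anchored at hemidesmosomes, which hold the cell to the basement membrane. KRT15 is a further type I keratin of basal cells, known for its high level in the stem cell region of the hair follicle. Cells that leave the basal layer lower these genes and turn on suprabasal keratins such as KRT1, KRT10, KRT4 and KRT13, while KRT6, KRT16 and KRT17 are known from wounded or rapidly growing epithelium.

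The partners of the basal filament lie in 2 keratin gene clusters. In the RefSeq annotation of GRCh38.p14, KRT5 spans bases 52514575 to 52520394 of chromosome 12. Its nearest protein-coding neighbours there are the type II genes KRT6A and KRT71. KRT15 (bases 41513745 to 41518890) and KRT14 (bases 41582279 to 41586895) lie in the type I cluster of chromosome 17. KRT19 and KRT9 are the protein-coding genes between them, and KRT16 and KRT17 follow KRT14. How reads shared by near-identical members of these families were counted is not given in the sources used here, so that a part of each value may belong to a close relative.

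A promoter entry was held for 1 of the 3 members, KRT5, and is shown because the level of this gene set SCC6 apart from the other lines. The 250 bases before its transcription start (chr12:52520395-52520644, minus strand, RefSeq, GRCh38.p14) are printed 5′ to 3′, and the capitals mark an E-box, CAGCTG, followed further on by the TATA-like run ATAAAA.
KRT5 promoter: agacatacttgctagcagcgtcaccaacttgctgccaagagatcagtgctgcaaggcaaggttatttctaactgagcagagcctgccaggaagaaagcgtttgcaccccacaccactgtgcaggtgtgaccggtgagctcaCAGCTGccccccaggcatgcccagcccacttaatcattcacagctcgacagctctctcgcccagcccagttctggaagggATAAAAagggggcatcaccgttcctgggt
The ATAAAA match started at base -29 and the CAGCTG match at base -109 from the start site. On either strand, ATAAAA was found in 14.8% and CAGCTG in 13.99% of the 35116 RefSeq promoter windows of the same length. The AP-2 pattern GCCNNNGGC, the AP-1 motif TGAGTCA and the SP1 motif GGGCGG had no match in these letters and were present in 19.8%, 4.20% and 42.6% of windows. A match is a description of the sequence and not a site shown to be bound.

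The tables held 23914 cells, 961 to 2854 per library, with 57057402 to 112170073 unique molecular identifiers (UMIs) per library. The median cell had 24078.5 to 54864 UMIs, and shares of cells were therefore compared after thinning each cell to 15000 UMIs. The epithelial identity of the lines was checked on EPCAM (84.3 to 409 CPM, the UMIs of a gene scaled to the same total in every library) and on TP63 (6.09 to 71.3 CPM), the transcription factor of basal epithelial cells. The leukocyte gene PTPRC reached at most 0.0669 CPM, while the list of 10 immune markers summed to 119 to 194 CPM in SCC25, mostly CD68, and to at most 31.8 CPM in the other lines. The endothelial gene PECAM1 reached 0.196 CPM, and the fibroblast genes COL1A1 and LUM 23.1 and 56.1 CPM. Libraries of 1 group shared 3 to 10 cell barcodes and libraries of different groups 1 to 13.

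KRT5 and KRT14 were among the abundant transcripts of SCC25 and SCC1 and were almost absent from SCC6. KRT5 stood at 994 and 2093 CPM in the PBS libraries of SCC25. It stood at 379.9 and 599 CPM in SCC1 and at 0.967 and 1.45 CPM in SCC6. The 3 lines did not overlap, and SCC6 lay far below the others. KRT14 followed the same order, with 2543 and 4289 CPM in SCC25, 1322 and 1416 CPM in SCC1, and 0.777 and 0.379 CPM in SCC6. KRT15 set SCC6 apart less, with 20.2 and 11.7 CPM there. In SCC1 it had 70.3 and 88.0 CPM, and in SCC25 85.9 and 217 CPM, so that these 2 lines overlapped. A CPM here is a share of captured 3′ ends and is not scaled by length.

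**Figure D1:**
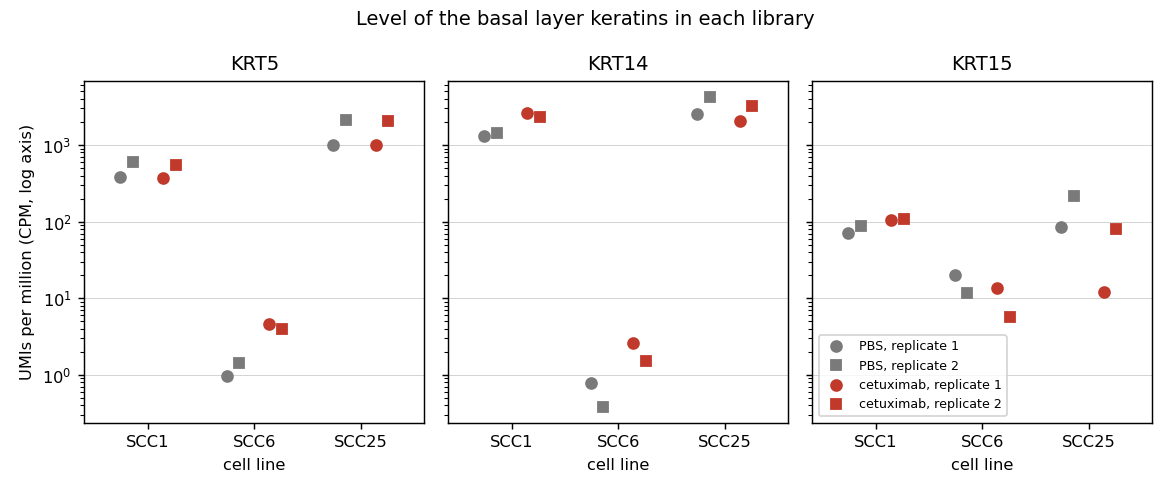
Level of KRT5, KRT14 and KRT15 in CPM (log axis) in each of the 12 libraries, by cell line; grey points are PBS and red points cetuximab, with a circle for replicate 1 and a square for replicate 2. SCC6 sits at 0.379 to 4.57 CPM for KRT5 and KRT14 while SCC1 and SCC25 lie above 370 CPM, and KRT15 spans a smaller range.

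The order of untreated lines was tested by edgeR (quasi-likelihood) on UMIs summed per library, with the false discovery rate (FDR, Benjamini-Hochberg) over 17897 genes. KRT5 was 8.35 ± 0.62 (SE) log2 units higher in SCC1 than in SCC6 (326-fold, FDR = 6.5e-06), and KRT14 was 10.86 ± 0.60 higher (1861-fold, FDR = 1.3e-06). With KRT15 at 1.97 ± 0.78 (FDR = 0.0678), 2 of the 3 members passed 0.05 where 40.2% of all genes did (53.8% with the replicate block described below, with the same count of members). KRT15 passed in DESeq2 (FDR = 0.0191, where 43.1% of genes passed) and with no filter on low counts (FDR = 0.00286, where 28.0% of genes passed).

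SCC25 against SCC6 gave the largest differences, and 3 of 3 members passed where 40.9% of all genes did (54.4% with the block and 43.2% in DESeq2, again with 3 members). Each was lower in SCC6. The log2 difference was -10.20 for KRT5 (SE 0.67, FDR = 3.7e-06), -12.39 for KRT14 (SE 0.63, FDR = 9.3e-07) and -3.11 for KRT15 (SE 0.81, FDR = 0.0118). KRT15 missed the threshold without SCC6 PBS replicate 2 (FDR = 0.0843) and without SCC25 PBS replicate 2 (FDR = 0.0707).

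Between SCC1 and SCC25 the difference was smaller, and 2 of 3 members passed where 40.8% of all genes did (54.7% with the block and 43.0% in DESeq2, again with 2 members). SCC1 was the lower line, with a log2 difference of -1.85 for KRT5 (SE 0.46, FDR = 0.00953) and of -1.52 for KRT14 (SE 0.40, FDR = 0.0121). KRT15 differed by -1.15 (SE 0.76, FDR = 0.256), with a 95% interval from -2.83 to 0.54. Neither call held without SCC1 PBS replicate 1 (FDR = 0.0807 for KRT5 and 0.0818 for KRT14) or without SCC25 PBS replicate 2 (FDR = 0.0825 and 0.0910). KRT14 also missed it without SCC1 PBS replicate 2 (FDR = 0.0503).

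The 2 libraries of a group differed in these genes, in some cases alike with and without cetuximab and in others not. In SCC25, KRT5 was 2.11-fold higher in replicate 2 than in replicate 1 in PBS and 2.03-fold higher in cetuximab. KRT14 of SCC25 showed 1.69-fold and 1.56-fold. In SCC1, KRT5 showed 1.58-fold and 1.49-fold. The offset was not shared in KRT14 of SCC1 (1.07 in PBS and 0.890 in cetuximab) or in KRT5 of SCC6 (1.4997 and 0.862), and for KRT15 of SCC25 it was 2.53 and 6.67. From the pairing over all genes, a second fit carried 1 term for each replicate number within a line (the replicate block), and its value is given wherever it changed a call. In the comparisons of untreated lines the block was instead 1 term for the replicate number, shared by the 3 lines.

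In SCC1, KRT14 was higher with cetuximab in both pairs of libraries, whereas KRT5 stood at 0.9753 and 0.924 of its PBS level. KRT14 had 1322 and 1416 CPM in PBS and 2614 and 2328 CPM in cetuximab, without overlap. This was a log2 change of 0.80 ± 0.39 (SE), with FDR = 0.632. With the replicate block the change was 0.80 ± 0.13, 1.74-fold, and it passed (FDR = 0.0161). KRT5 had 379.9 and 599 CPM in PBS and 370.5 and 554 CPM in cetuximab, and the blocked change was -0.12 ± 0.15 (95% interval -0.46 to 0.21, FDR = 0.715). KRT15 had 70.3 and 88.0 CPM in PBS and 106 and 109 CPM in cetuximab. The 2 groups did not overlap, but neither fit called it (log2 change 0.39 ± 0.75, FDR = 0.999 and, with the block, 0.40 ± 0.27, FDR = 0.463). Among all genes 0.0168% passed without and 4.45% with the block, against 0 and 1 of the 3 members. At an unadjusted p under 0.05 no member passed without the block, and DESeq2 called none of them among 1.51% of genes. Fibroblast markers were higher in the same libraries. Their summed level over 10 genes went from 18.9 and 16.8 to 36.8 and 35.3 CPM, 0 of 10 passed without and 3 with the block, and their part in the result was not tested.

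In SCC6, KRT5 and KRT14 were several-fold higher with cetuximab and KRT15 was lower. KRT5 had 0.967 and 1.45 CPM in PBS and 4.57 and 3.93 CPM in cetuximab. These are counts of 97, 149, 347 and 354 UMIs, so that the gene stayed far under its level in the other lines. The log2 change was 1.59 ± 0.48 (FDR = 0.0974) and 1.60 ± 0.17 with the block (3.03-fold, FDR = 0.00118). KRT14 had 78 and 39 UMIs in PBS and 196 and 135 in cetuximab, which is 0.777 and 0.379 against 2.58 and 1.5 CPM. Its log2 change was 1.57 ± 0.43 (FDR = 0.0772) and 1.60 ± 0.16 with the block (3.04-fold, FDR = 0.000997). DESeq2 called both genes (FDR = 0.0177 for KRT5 and 0.00999 for KRT14).

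A single SCC6 cell of cetuximab replicate 1 held 68 of the 196 KRT14 UMIs of its library. Without that cell the library had 1.69 CPM of KRT14. Leaving out the cells with most KRT5 or KRT14, 8 in all, moved the blocked log2 change of KRT14 to 1.32 ± 0.21 (FDR = 0.00544) and that of KRT5 to 1.61 ± 0.18 (FDR = 0.00169). KRT15 had 20.2 and 11.7 CPM in PBS and 13.8 and 5.79 CPM in cetuximab. Those groups overlapped, and each pair of equal replicate number was lower with cetuximab. The log2 change was -0.96 ± 0.76 (FDR = 0.535) and, with the block, -1.01 ± 0.28 (FDR = 0.0354). Without the block the KRT15 estimate was -1.70 when cetuximab replicate 1 was left out, -0.46 without PBS replicate 1 and -0.48 without cetuximab replicate 2. The share of all genes passing in SCC6 was 3.81% without and 20.1% with the block, against 0 and 3 of the 3 members, and KRT5 and KRT14 were under 0.05 unadjusted without it. In DESeq2, where 9.28% of genes passed, 2 members did. The fibroblast list of 10 markers moved with these changes, from a sum of 1.02 and 3.11 CPM in PBS to 28.0 and 23.4 CPM in cetuximab, most of it COL1A1. Of its genes 3 passed without and 4 with the block, all upward, while 4 of 10 epithelial markers fell with the block and none passed without it. The part of these markers in the keratin result was not tested.

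In SCC25 the member that moved was KRT15, which was lower with cetuximab in both pairs. It had 85.9 and 217 CPM in PBS and 11.99 and 80.0 CPM in cetuximab, without overlap but with a wide spread in each group. The log2 change was -1.77 ± 0.77 by edgeR (adjusted p = 0.850, and unadjusted under 0.05) and -2.16 ± 0.28 with the block (FDR = 0.0193), a fall to 0.223 of the PBS level. Without the block the estimate ranged from -3.73 when cetuximab replicate 2 was left out to -0.86 when PBS replicate 2 was left out, and it was -0.95 without cetuximab replicate 1. KRT14 had 2543 and 4289 CPM in PBS and 2065 and 3229 CPM in cetuximab. Each pair was lower, at 0.812 and 0.753 of PBS, and the blocked log2 change of -0.39 ± 0.13 missed the threshold (FDR = 0.210). KRT5 had 994 and 2093 CPM in PBS and 1002 and 2029 CPM in cetuximab. Its blocked change of -0.05 ± 0.15 had a 95% interval from -0.38 to 0.29. No gene of the whole table passed in SCC25 without the block (0%), 1041 had an unadjusted p under 0.05 and DESeq2 called 101 (0.564%), none of them a member. With the block 0.978% of genes passed, and KRT15 was the 1 member among them. The summed fibroblast list stood at 23.7 and 41.7 CPM in PBS and at 49.97 and 85.4 CPM in cetuximab, with 0 of 10 genes passing without and 1 with the block, and its part in the result was not tested.

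**Figure D2:**
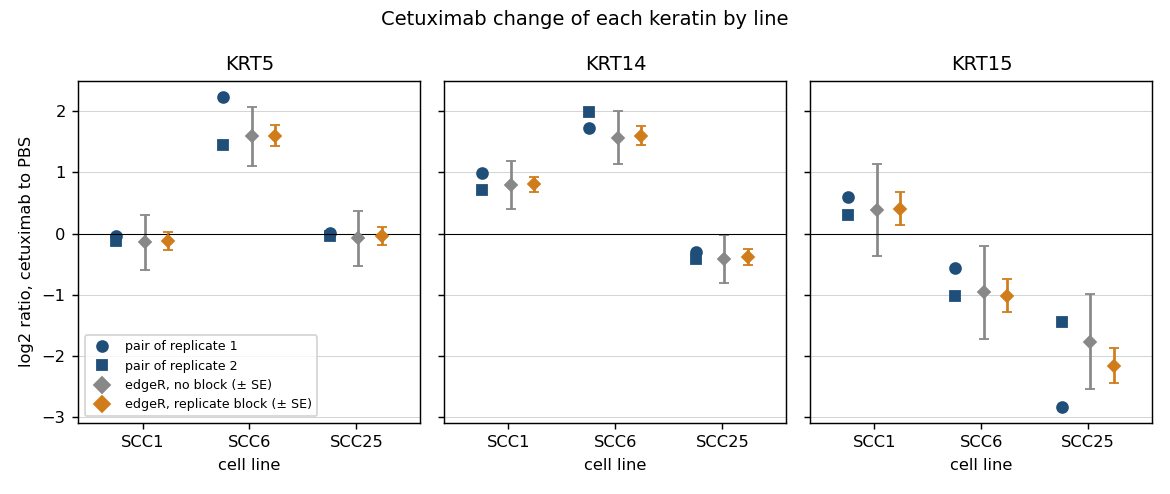
Cetuximab to PBS log2 ratio of each keratin by line; blue points are the CPM ratios of the pairs of equal replicate number, grey diamonds the edgeR estimate without and orange diamonds with the replicate block, each ± SE. KRT14 is above 0 in SCC1 and SCC6 and below 0 in SCC25, KRT5 leaves 0 in SCC6, and KRT15 is below 0 in SCC6 and SCC25.

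Over the 3 lines together, the mean log2 change was 0.46 ± 0.26 for KRT5 (FDR = 0.379), 0.65 ± 0.23 for KRT14 (FDR = 0.1496) and -0.78 ± 0.44 for KRT15 (FDR = 0.364). No member passed there, while 3.86% of all genes did. KRT14 had an unadjusted p of 0.0189 by edgeR, and DESeq2, with 10.2% of genes, called no member. With no filter on low counts KRT14 passed (0.66, FDR = 0.0194), as did 4.91% of genes. With the block all 3 passed, as did 21.2% of genes, at 0.48 ± 0.09 for KRT5 (FDR = 0.00856), 0.67 ± 0.08 for KRT14 (FDR = 0.00163) and -0.92 ± 0.16 for KRT15 (FDR = 0.00592). Without the block, the KRT15 mean was -1.44 when SCC25 cetuximab replicate 2 was left out, -0.48 without PBS replicate 2 and -0.505 without cetuximab replicate 1 of that line. These means join lines that moved in different directions. The interaction term, line by treatment, asked if the lines differed in their change. It called 0 of 17897 genes (0%) without the block, 1318 of them with an unadjusted p under 0.05, while DESeq2 called 287 (1.60%) and no member. The FDR was 0.650 for KRT5, 0.556 for KRT14 and 0.883 for KRT15 by edgeR, with unadjusted p of 0.0408, 0.0195 and 0.178. With the block 1.29% of genes passed and all 3 members were among them, with FDR = 0.0251, 0.0191 and 0.0430.

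KRT5 and KRT14 were found in nearly every cell of SCC1 and SCC25, and KRT15 in some. At 15000 UMIs per cell, 83.5 to 94.2% of SCC1 cells and 99.6 to 100% of SCC25 cells had a UMI of KRT5. For KRT14 the ranges were 97.9 to 99.4% and 98.9 to 99.9%. In whole cells KRT5 reached 94.1 to 98.7% of SCC1 cells, and KRT14 99.4 to 99.9%, and in SCC25 no share was under 99.8%. In SCC6, 1.17 and 1.52% of PBS cells and 4.48 and 3.17% of cetuximab cells had KRT5 at this depth, and 2.12, 3.34, 6.34 and 7.86% had it in whole cells. KRT14 was present in 1.24 and 0.493% of PBS and 1.62 and 1.71% of cetuximab SCC6 cells after thinning, and in 2.05, 1.21, 3.01 and 3.63% of whole cells. No cell type known to lack these keratins was present beside the tumour cells, so the part of these SCC6 shares that free RNA gives could not be measured. In whole SCC6 cells, 5 and 1 cells in PBS and 12 and 11 in cetuximab held both KRT5 and KRT14.

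KRT15 was patchy in every line. It was present after thinning in 47.8 and 56.4% of SCC1 cells in PBS, against 23.2 and 15.5% of SCC6 cells and 43.1 and 69.7% of SCC25 cells. With cetuximab 40.5 and 52.6% of SCC1 cells had it, 17.7 and 8.97% of SCC6 cells, and 12.1 and 40.1% of SCC25 cells. In whole cells the shares were 75.1 and 82.1% in PBS and 66.1 and 80% in cetuximab for SCC1, and 40.1 and 31.7% against 25.6 and 21.2% for SCC6. For SCC25 they were 60.6 and 87.7% in PBS and 25.6 and 62.2% in cetuximab. All 6 pairs of equal line and replicate number were lower with cetuximab, by 13.9 percentage points on average. The exact permutation test within lines (two-sided, smallest possible p 0.00926) gave p = 0.0556 and 0.148 after adjustment over 8 tests. The sign-flip test over pairs, which is the replicate block for this measure, gave an exact p of 0.03125, the smallest that 6 pairs allow, and 0.25 after adjustment. At a depth of 5000 UMIs, 2 of 6 pairs were higher and the mean difference was -7.74 points (permutation p = 0.157).

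In SCC1 the direction of the KRT15 share depended on depth and on the minimum of UMIs. Its CPM was higher with cetuximab in both pairs. The share of cells with a UMI differed by -5.54 points at 15000 UMIs and by -5.52 in whole cells, but by 1.33 points at 5000 UMIs, and the share with 3 or more UMIs by 3.02 points. The 10% of whole cells with most KRT15 held 52.9 and 44.5% of its UMIs in PBS and 70.5 and 58.0% in cetuximab, and the most loaded cells carried up to 195 UMIs. The extra-Poisson coefficient of variation, the spread between cells beyond counting noise, was 2.23 and 1.64 in PBS and 2.52 and 2.31 in cetuximab. Over the 3 lines this spread of KRT15 was higher in 5 of 6 pairs by 0.60 on average (exact permutation p = 0.0370, 0.148 after adjustment). For comparison, the same measure was 0.71 and 0.49 for KRT5 in PBS cells of SCC25 and 1.17 and 0.98 for KRT14.

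**Figure D3:**
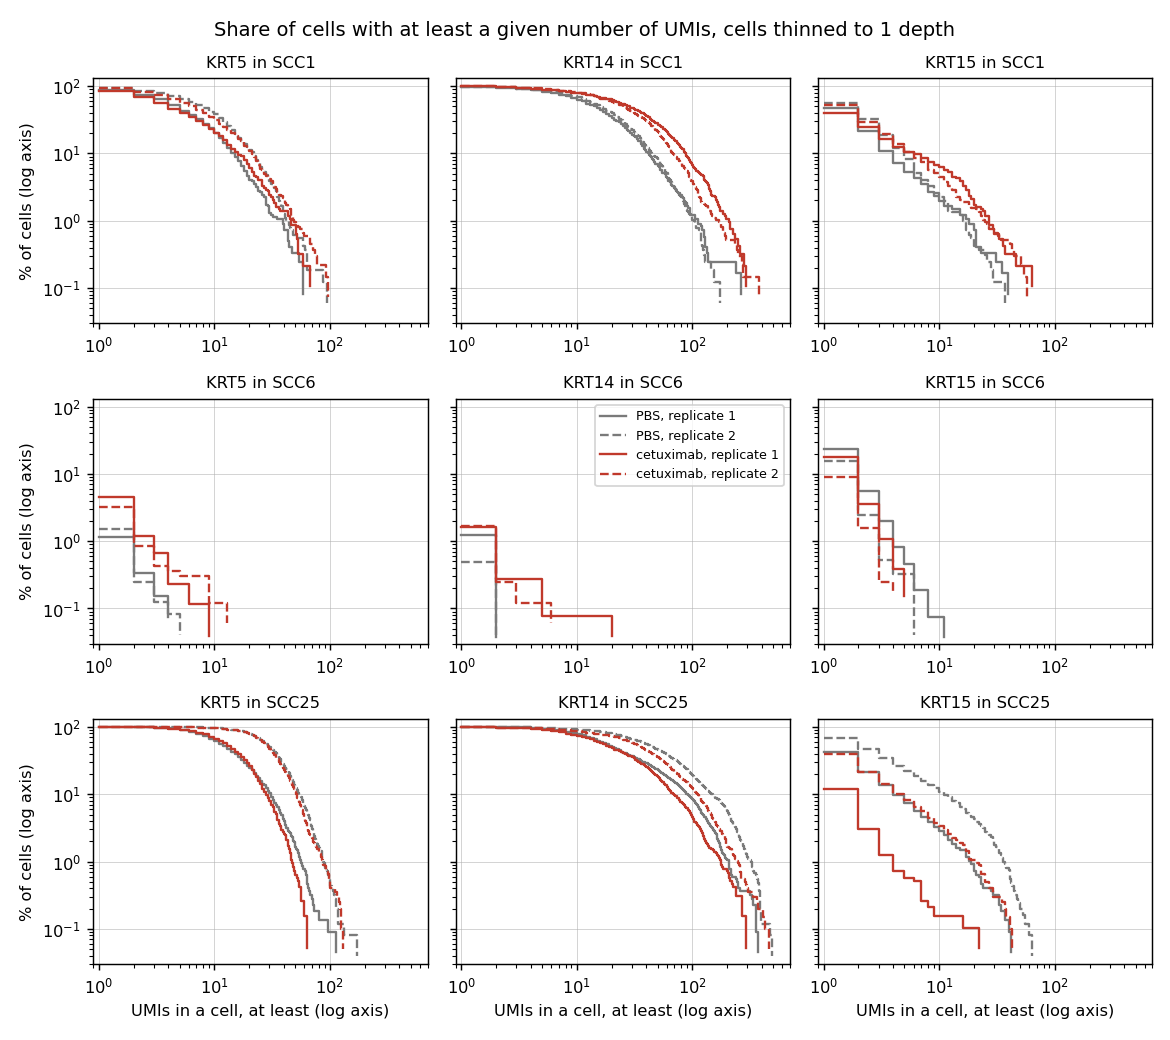
Share of cells (%, log axis) with at least the number of UMIs on the x axis (log axis), for each keratin (columns) and line (rows), cells thinned to 15000 UMIs; grey lines are PBS, red lines cetuximab, full lines replicate 1 and dashed lines replicate 2. The KRT14 curves of SCC1 shift right with cetuximab, the KRT15 curves of SCC1 start lower and end higher, and those of SCC25 drop.

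The balance between the partner chains also differed by line. The KRT14 to KRT5 ratio of UMIs in SCC1 was 3.48 and 2.36 in PBS and 7.06 and 4.20 in cetuximab, without overlap. In SCC25 it was 2.56 and 2.05 in PBS and 2.06 and 1.59 in cetuximab, with each pair lower. In SCC6 the ratio was 0.804 and 0.262 in PBS and 0.565 and 0.381 in cetuximab, from few UMIs. Over lines the mean log2 difference was 0.20 (exact permutation p = 0.574, 0.765 after adjustment). For KRT15 to KRT5 the ratio was lower in SCC25, going from 0.0864 and 0.104 to 0.0120 and 0.0394, and higher in SCC1, going from 0.185 and 0.147 to 0.287 and 0.197, as values without a test of their own. The mean over lines was -1.41 log2 units (exact permutation p = 0.0556, 0.148 after adjustment).

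Within a library, KRT5 and KRT14 varied together from cell to cell in SCC25 and less in SCC1. The Pearson r over 1920 to 2503 thinned cells of SCC25, on log2(UMIs + 1), was 0.68 and 0.56 in PBS and 0.58 and 0.51 in cetuximab. In SCC1 it was 0.36 and 0.44 in PBS and 0.19 and 0.27 in cetuximab. These cells share a library and a depth, and the r values are descriptions. KRT14 and KRT15, both type I chains, had r from 0.15 to 0.37 in SCC25 and from -0.18 to 0.01 in SCC1. KRT5 and KRT15 had r from 0.26 to 0.28 in SCC1 and from 0.08 to 0.35 in SCC25. In SCC6 all r lay between -0.01 and 0.12, which at these counts is no finding.

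**Figure D4:**
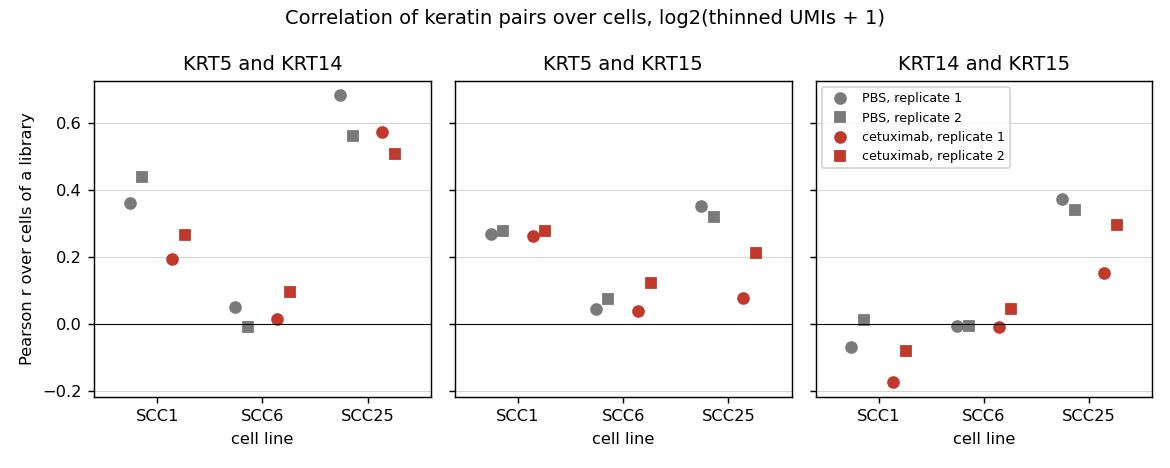
Pearson r between pairs of keratins over the cells of each library, on log2(thinned UMIs + 1), by line; grey points are PBS, red points cetuximab, circles replicate 1 and squares replicate 2. KRT5 and KRT14 lie at 0.51 to 0.68 in SCC25, and KRT14 and KRT15 are near or under 0 in SCC1.

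The genes most like each member over cells differed by line and member, by the median r over the 4 libraries of a line among genes of at least 50 CPM. In SCC25, KRT5 was nearest to KRT14 (median r 0.57), KRT6A (0.51) and KRT17 (0.47). KRT14 was nearest to KRT6A (0.67), IGFBP6 (0.61), KRT5 (0.57), SFN (0.55) and KRT16 (0.46). KRT15 in SCC25 had none of the keratins among its nearest 5, which were SELENOP (0.42), TNFSF10 (0.39), MMP1 (0.39), GPNMB (0.38) and FXYD3 (0.37).

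In SCC1 the grouping was another one. KRT5 and KRT15 shared their nearest genes, the mucosal suprabasal keratin KRT13 (0.45 with KRT5 and 0.49 with KRT15) and KRT19 (0.38 and 0.39). KRT14 was nearest to KRT17 (0.48), KRT7 (0.47) and SFN (0.44). The genes furthest from KRT14 in SCC25 were RPLP0 (-0.44), PABPC1 (-0.43) and RPL24 (-0.42), which serve translation. COTL1, an actin-binding protein, was the gene furthest from KRT15 in SCC1 (-0.31) and in SCC25 (-0.28). KRT14, KRT16 and KRT17 are close in sequence, and how their reads were told apart was not tested.

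Among thinned cells, those with a UMI of MKI67, a marker of proliferating cells, had fewer KRT5 and KRT15 UMIs than the others of their library. Thinned UMIs are shares of what a cell holds. Whether whole cells of the MKI67 classes differed in their amount of these keratins was not tested. KRT15 was lower in MKI67-positive cells in 12 of 12 libraries, at 0.500 of the level in negative cells on average (mean log2 ratio -1.001, exact sign-flip permutation p = 0.000488, 0.00146 after adjustment over 6 tests). SCC1 had the lowest mean log2 ratio at -1.503, before SCC25 at -1.13 and SCC6 at -0.37. KRT5 was lower in 12 of 12 libraries, at 0.737 of the level in negative cells (mean log2 ratio -0.44, exact sign-flip permutation p = 0.000488, 0.00146 after adjustment). This p is the smallest that 12 libraries allow. In SCC6 the KRT5 ratios rest on few UMIs, with 20 and 29 in positive cells of PBS and 48 and 42 in those of cetuximab. At a depth of 5000 UMIs, KRT5 and KRT15 were each lower in 11 of 12 libraries, with 0.00586 after adjustment of the permutation p. KRT14 was lower in 10 of 12 (mean -0.19, permutation p = 0.226), and the 2 exceptions were SCC6 libraries with 24 and 41 KRT14 UMIs in positive cells. In the 8 libraries of SCC1 and SCC25, KRT14 was lower in 8 (mean -0.36, exact sign-flip permutation p = 0.00781, 0.0156 after adjustment). This p is the smallest that 8 libraries allow. The subset was chosen after seeing the data and leaves out the line of both exceptions, so that it is a description only.

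**Figure D5:**
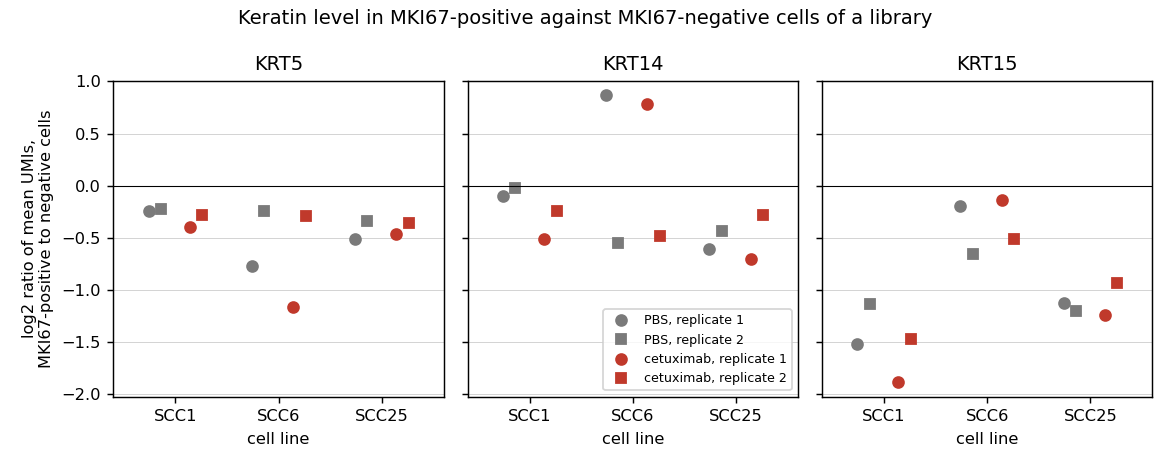
Log2 ratio of the mean thinned UMIs of each keratin in MKI67-positive to MKI67-negative cells of each library, by line; grey points are PBS, red points cetuximab, circles replicate 1 and squares replicate 2. All 12 points lie under 0 for KRT5 and KRT15, with the lowest for KRT15 in SCC1 at -1.89.

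Fewer cells were MKI67-positive with cetuximab in every pair, from 64.3 and 58.9% to 21.9 and 39.4% in SCC1, from 56.8 and 63.1% to 45.1 and 48.7% in SCC6, and from 60.1 and 38.9% to 43.0 and 24.3% in SCC25. The keratin changes were therefore read again inside the classes, in thinned cells. Among MKI67-negative cells of SCC1 the log2 change of KRT14 was 1.04 and 0.74 in the 2 pairs, against 1.00 and 0.66 in all cells. For KRT15 in SCC1 it was 0.15 and 0.18, against 0.68 and 0.32 in all cells, and it was -0.22 and -0.16 among MKI67-positive cells. The KRT15 difference in SCC25 was as large among negative cells (-2.93 and -1.59) as in all cells (-2.78 and -1.41). KRT5 in SCC6 stood at 2.02 and 1.53 among negative cells against 1.99 and 1.54 in all.

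VIM, a filament protein of mesenchymal cells, was compared in the same way in the 10 libraries with at least 20 cells of both classes. KRT5 was lower in VIM-positive cells in 8 of 10 libraries (mean log2 ratio -0.44, exact sign-flip permutation p = 0.00977, 0.0195 after adjustment), but this was lost at a depth of 5000 UMIs (-0.12, adjusted permutation p = 0.820). KRT15 was lower in 8 of 10 (mean -0.72, exact sign-flip permutation p = 0.0430, 0.0645 after adjustment) and KRT14 in 7 of 10 (-0.13, permutation p = 0.641). In SCC6 the share of VIM-positive cells went from 18.1 and 35.9% in PBS to 92.4 and 91.2% in cetuximab. Among its VIM-negative cells the log2 change of KRT5 was 1.88 and 2.52, and that of KRT15 was -0.92 and -1.93. KRT14 changed there by -0.06 and 1.55, and by 0.31 and 3.32 among VIM-positive cells. All of these values rest on few UMIs. The VIM-positive PBS cells held 11 and 2 KRT14 UMIs. The VIM-negative cetuximab cells numbered 197 and 145, with means of 0.0102 and 0.0207 UMIs of KRT14. Their means were 0.0660 and 0.110 for KRT5 and 0.178 and 0.0552 for KRT15. The size of the SCC6 changes once VIM was held could therefore not be told.

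The other keratins did not move as 1 group. Of the 6 stress keratins tested, 1 rose in SCC6 and 1 fell without the block, and 2 rose and 2 fell with it, where 3.81% and 20.1% of all genes passed. KRT17 rose (log2 change 1.64 ± 0.39, edgeR FDR = 0.0463), and KRT6A fell (-2.60 ± 0.27, FDR = 0.00373). With the block KRT16 also rose (1.31 ± 0.17, FDR = 0.00274) and KRT6B fell (-4.39 ± 0.78, FDR = 0.00818). The median over the list was -1.27, beside 0 over all genes. In SCC1, 1 of 6 rose with the block, KRT16 (1.13 ± 0.17, FDR = 0.0143), and none passed without it. The list's median there was 1.29 without the block. In SCC25, 1 of 6 rose with the block, KRT75 (2.35 ± 0.23, FDR = 0.00900), and the median was 0.50 without it. Of all genes, 4.45% passed with the block in SCC1 and 0.978% in SCC25. Over the 3 lines together, where 3.86% of all genes passed without the block, 1 of 6 rose and 1 fell. These were KRT17 (1.25 ± 0.22, edgeR FDR = 0.0149) and KRT6A (-0.82 ± 0.15, FDR = 0.0164). In SCC1 KRT17 had 3718 and 3465 CPM in PBS and 7607 and 6907 CPM in cetuximab.

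Suprabasal keratins, 10 of 13 tested, showed 0 calls without the block in each line. In SCC25 with the block, 2 fell, both of them keratins of the mucosal suprabasal layers, KRT4 (-3.19 ± 0.46, FDR = 0.0261) and KRT13 (-2.24 ± 0.32, FDR = 0.0261). KRT13 had 104 and 607 CPM in PBS and 12.4 and 235 CPM in cetuximab, so that replicate 2 lay above replicate 1 in both groups, as for KRT15. In SCC1 1 rose (KRT80, 1.17 ± 0.24, FDR = 0.0326), and in SCC6 1 rose and 1 fell with the block (KRT9 1.79 ± 0.50, FDR = 0.0401 and KRT23 -2.73 ± 0.60, FDR = 0.0173). The 2 of 10 called in SCC6 compare with 20.1% of all genes there, 1 of 10 in SCC1 with 4.45% and 2 of 10 in SCC25 with 0.978%. KRT9 lay at 0.0292 to 0.167 CPM and KRT23 at 0.0222 to 0.282 CPM in SCC6. Without the block the list had a median change of 0.16 (SCC1), -0.24 (SCC6) and -0.59 (SCC25). Over the 3 lines without it, KRT80 was the 1 call (0.91 ± 0.17, edgeR FDR = 0.0169), where 3.86% of all genes passed.

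Of the 4 simple epithelial keratins tested, none passed without the block in any line. With it, 2 rose in SCC1 (KRT8 0.84 ± 0.16, FDR = 0.0291 and KRT7 0.60 ± 0.12, FDR = 0.0322), 2 fell in SCC6 (KRT7 -0.80 ± 0.12, FDR = 0.00475 and KRT19 -0.84 ± 0.13, FDR = 0.00526), and KRT7 alone rose in SCC25 (0.85 ± 0.12, FDR = 0.0256). Among all genes the blocked fit called 4.45% (SCC1), 20.1% (SCC6) and 0.978% (SCC25). The fit without the block called 0.0168%, 3.81% and 0%, by the same order of lines. KRT5 held 0.00870 to 0.0431% and KRT14 0.00385 to 0.0243% of the UMIs of 27 keratins in SCC6. In SCC1 the 27 keratins together stood at 14808 and 16117 CPM in PBS and at 25269 and 24989 CPM in cetuximab, and KRT14 held 8.92 and 8.79% of them in PBS and 10.3 and 9.32% in cetuximab, so that other keratins were higher in the same libraries. In SCC25, KRT14 held 24.4 and 24.2% in PBS and 16.3 and 14.8% in cetuximab. KRT17 of the same line went from 1696 and 2885 CPM to 3623 and 6769 CPM.

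Genes of the hemidesmosome and the basement membrane, the anchor of the basal filament, changed in 1 direction where they changed. Of 18 tested, 2 rose and none fell in SCC6 without the block, where 3.81% of all genes passed, COL4A1 (3.00 ± 0.52, edgeR FDR = 0.0163) and COL4A2 (2.30 ± 0.41, FDR = 0.0183), which are collagen chains of the basement membrane. With the block, where 20.1% of all genes passed, 7 rose in SCC6, among them COL17A1, a collagen of the hemidesmosome (0.92 ± 0.13, FDR = 0.00394), and COL7A1 of the anchoring fibrils (1.39 ± 0.22, FDR = 0.00562). In SCC1, where 4.45% of all genes passed with the block, 4 rose, namely COL4A1 (1.04 ± 0.16, FDR = 0.0161), LAMA3 (0.97 ± 0.15, FDR = 0.0161), LAMA5 (0.79 ± 0.13, FDR = 0.0173) and LAMC1 (0.68 ± 0.15, FDR = 0.0421). In SCC25, with 0.978% of all genes passing, only COL4A1 did (1.28 ± 0.16, FDR = 0.0170). Over the 3 lines without the block, COL4A1 (1.75 ± 0.29, edgeR FDR = 0.0114) and COL4A2 (1.15 ± 0.23, FDR = 0.0248) rose. There 3.86% of all genes passed. The list's median without the block was 0.50, 0.39 and 0.31 in SCC1, SCC6 and SCC25, beside 0.00, 0 and -0.01 over all genes.

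Other genes of the basal state went both ways. Of 28 tested, 2 rose and 4 fell in SCC6 without the block, and 6 rose and 5 fell with it, again beside 3.81% and 20.1% of all genes. The 3 named ones that fell without it were S100A2 (-1.10 ± 0.24, FDR = 0.0329), the transcription factor SOX2 (-3.12 ± 0.64, FDR = 0.0288) and PITX1 (-1.16 ± 0.19, FDR = 0.0122), and with the block so did NGFR (-2.80 ± 0.37, FDR = 0.00297). In SCC1 with the block, TP73 (-1.76 ± 0.22, FDR = 0.00948) and NGFR (-2.41 ± 0.36, FDR = 0.0148) fell and DLX5 rose (1.09 ± 0.25, FDR = 0.0492). NGFR lay at 0.0333 to 1.47 CPM in SCC6, where its groups overlapped and each pair was lower with cetuximab. It lay at 0.0526 to 0.881 CPM in SCC1. SOX2 lay at 0.189 to 2.93 CPM in SCC6, so that these falls rest on few UMIs. In SCC25 with the block 1 fell, PITX1 (-0.74 ± 0.13, FDR = 0.0465). The share of all genes passing with the block was 4.45% in SCC1 and 0.978% in SCC25. The median change without the block was -0.06, -0.10 and 0.05 in SCC1, SCC6 and SCC25. Over the 3 lines without it, PITX1 was the 1 call (-0.67 ± 0.11, edgeR FDR = 0.0106), where 3.86% of all genes passed.

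Early differentiation genes, 22 of 28 tested, gave 2 that rose in SCC6 without the block, among them TGM1, the transglutaminase of the cornified envelope (2.11 ± 0.50, FDR = 0.0457). With the block 4 rose and 4 fell there, including DSC2 (0.79 ± 0.14, FDR = 0.00904). Of all genes, 3.81% passed in SCC6 without the block and 20.1% with it. With the block the share was 4.45% in SCC1 and 0.978% in SCC25. LY6D, a surface protein of keratinocytes, fell with the block in SCC1 (-0.999 ± 0.16, FDR = 0.0161), SCC6 (-1.47 ± 0.16, FDR = 0.00152) and SCC25 (-1.97 ± 0.16, FDR = 0.00579), and TGM1 rose in SCC1 (1.49 ± 0.25, FDR = 0.0181). The median without the block was 0.10, -0.53 and -0.23 in SCC1, SCC6 and SCC25.

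Desmosomes join the keratin filaments of neighbouring cells, and none of their 11 genes passed without the block in any line. With it, 3 rose and 1 fell in SCC6, of which DSP (0.77 ± 0.12, FDR = 0.00568), PKP2 (0.65 ± 0.12, FDR = 0.0101) and DSC3 (0.58 ± 0.14, FDR = 0.0227) rose and PKP3 fell (-0.68 ± 0.15, FDR = 0.0180). In SCC1 and SCC25 none passed, and the most abundant members, PERP and DSP, had blocked changes of 0.50 ± 0.15 and -0.11 ± 0.12 in SCC1 and of 0.18 ± 0.15 and -0.24 ± 0.12 in SCC25. Of 9 keratin partners and chaperones, none passed without the block. With it, TRIM29 (0.97 ± 0.14, FDR = 0.0143) and HSPB1, a small heat shock protein (0.85 ± 0.14, FDR = 0.0161), rose in SCC1. In SCC6, EPPK1 (0.98 ± 0.24, FDR = 0.0254) and SFN (0.69 ± 0.20, FDR = 0.0439) rose and TRIM29 fell (-0.85 ± 0.15, FDR = 0.00737), while none passed in SCC25, where HSPB1 and SFN had blocked changes of 0.27 ± 0.13 and 0.11 ± 0.20. Beside both lists, 4.45% of all genes passed with the block in SCC1, 20.1% in SCC6 and 0.978% in SCC25.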

How the data were processed

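The deposited files were 3 tables of raw UMI counts per gene and cell, 1 for each line, made by the authors with Cell Ranger. The submitters' processing notes name GRCh38 and no version, and the study's methods name Monocle for later steps. All cells were used, no doublet caller was run, and each deposited library was analysed. Groups and replicate numbers came from the labels. The members and gene lists were chosen with earlier results of these data known. Counts of 24 repeated symbols were added, and counts were summed per library because cells are not replicates. The sums were tested with edgeR 4.0.16 (TMM, filterByExpr, 6 residual degrees of freedom, 3 with the replicate block within lines), with DESeq2 1.42.0 as an alternative, in R 4.3.3. The replicate numbers were taken to pair libraries because deviations of equal-numbered PBS and cetuximab libraries correlated at 0.38, 0.35 and 0.60 in SCC1, SCC6 and SCC25. Libraries of different lines with equal numbers also correlated, at 0.26 to 0.43 in PBS and 0.18 to 0.34 in cetuximab. The number is thus partly shared across lines. For cetuximab changes the block was set within each line. For comparisons of untreated lines it was 1 term shared by the lines. Cetuximab changes with that shared term are not given, so whether their calls hold under it cannot be told here. For shares, spread and classes, cells were thinned to 15000 UMIs, which left out 851 cells (0.847 to 9.18% per library). A cell was positive with 1 UMI or more. The rule for named genes was the members always, and from each list up to 4 genes with the smallest FDR among those past 0.05 in either fit, otherwise the 2 most abundant, and 1 gene that it chose is not reported here. Genes most like a member were the first 5, and those most opposed the first 3, with 1 sign of r in all 4 libraries of a line, of which only the leading ones are printed. Of the listed genes named over the 3 lines, only those past 0.05 without the block are printed. Permutation and sign-flip tests were exact and two-sided. Scripts were tested on simulated data.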

Additional observations from a re-analysis of the deposited data

Results flagged for a closer look

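The cetuximab change of all 3 basal keratins differed between lines in the fit with the replicate block, by the interaction term, line by treatment. For KRT14 (edgeR FDR = 0.0191), both pairs of libraries were higher with cetuximab in SCC1 and SCC6 and both were lower in SCC25. For KRT5 (edgeR FDR = 0.0251), both pairs were higher in SCC6, where the gene is rare, and between 0.924 and 1.01 of PBS in the other lines. For KRT15 (edgeR FDR = 0.0430), both pairs were higher in SCC1 and lower in SCC6 and SCC25. Without the block none of these passed (edgeR FDR = 0.556, 0.650 and 0.883).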

How the results depend on the processing

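With 2 libraries per group and without the replicate block, no cetuximab change of a member passed in edgeR with the filter on low counts. The block turned these results into calls and changed no other call of a member: log2 changes of 0.80 (KRT14 in SCC1), 1.60 (KRT5) and 1.60 (KRT14) and -1.01 (KRT15) in SCC6, -2.16 (KRT15 in SCC25), 0.48, 0.67 and -0.92 over lines, and FDR of 0.0251, 0.0191 and 0.0430 between lines. Chosen after seeing the data, the block without the SCC6 cells with most KRT5 or KRT14 gave 1.61 and 1.32 for KRT5 and KRT14 and -1.01 for KRT15 in SCC6, 0.80 for KRT14 in SCC1, -2.16 for KRT15 in SCC25, 0.48, 0.58 and -0.92 over lines, and FDR of 0.0296, 0.0366 and 0.0424 between lines. Without the filter on low counts KRT5 and KRT14 in SCC6 passed at 1.58 and 1.56, KRT14 over lines at 0.66 and between lines at FDR = 0.0353, and KRT15 in SCC1 against SCC6 at 1.95. In that fit 4.76% of all genes passed in SCC6, 4.91% over lines, 0.958% between lines and 28.0% in SCC1 against SCC6. DESeq2 called 1.58, 1.55 and 1.95 for KRT5 and KRT14 in SCC6 and KRT15 in SCC1 against SCC6. The cause was not tested. Blocked calls of cetuximab changes rest on the term set within each line, and none are given for a term shared by the lines.

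Leaving out each library in turn, the change of KRT5 ranged from -0.50 to 0.31 in SCC1 and from -0.69 to 0.64 in SCC25, and that of KRT14 in SCC25 from -0.78 to 0.088, each crossing 0. The change in SCC6 ranged from 1.10 to 2.23 for KRT14 and from -1.70 to -0.46 for KRT15, and over lines from 0.25 to 0.69 for KRT5 and from -1.44 to -0.48 for KRT15. Between untreated lines, KRT5 (-2.33 to -1.14) and KRT14 (-1.89 to -1.02) in SCC1 against SCC25 and KRT15 in SCC6 against SCC25 (-3.66 to -2.21) lost their call without PBS replicate 2 of SCC25, the first pair also without PBS replicate 1 of SCC1, KRT14 also without PBS replicate 2 of SCC1 and KRT15 also without PBS replicate 2 of SCC6. KRT15 in SCC1 against SCC6 (1.59 to 2.48) gained one without either cetuximab library of SCC25 (edgeR FDR = 0.0148). In cells, the share with KRT5 went from -1.64 to 1.45 points, its extra-Poisson spread from -0.82 to 0.18 and the log2 KRT14 to KRT5 ratio from -0.068 to 0.47. The ratio in VIM-positive cells went from -0.31 to 0.037 for KRT14 and from -0.92 to -0.58 for KRT15, which passed without either cetuximab library of SCC6. Without thinning, the KRT5 share difference was 1.09 points in place of -0.10. At 5000 UMIs, KRT5 in VIM-positive cells was -0.12. Without the SCC6 libraries KRT14 passed in MKI67-positive (-0.36) and VIM-positive cells (-0.40), as did KRT15 in VIM-positive cells (-1.31). Each had the smallest sign-flip p that the libraries left allow, and the line left out held all the exceptions. The alternatives on classes of cells were chosen after seeing the data. The KRT15 share in SCC1 changed direction at 5000 UMIs (1.33 points) and at 3 or more UMIs (3.02). Other scaling, cells and fits changed no call and no direction of a mean over lines or of a change in summed counts. Intervals of counts cover counting error only.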
